A study of Homo sapiens with 8 samples.

Results

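The mitosis genes are 38 genes of chromosome segregation and cell division, chosen by name: the rows of the count tables whose Ensembl identifier carries one of 38 listed symbols in GENCODE release 29. All 38 were found among the 58721 genes listed for each library, and all 38 passed the filter on low counts that left 19395 genes. The rule that picked them used no measured value, but the list was chosen with earlier results of these data known. The 38 genes lie on 16 chromosomes, and their counts in a library ran between 90 and 44831.

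The study treated cells of 2 human neuroblastoma lines with a PRMT5 inhibitor. PRMT5 dimethylates arginines, symmetrically, on spliceosome proteins, histones and other substrates. The 4 groups were NGP JSK591, NGP DMSO, CHLA-20 JSK591 and CHLA-20 DMSO, with 2 libraries each. The inhibitor is JSK591 in the sample names and GSK591 in the description of the treatment, and whether these are 1 compound is not settled here. It was given for 6 days at the dose named only as the IC50, and DMSO was the vehicle. NGP grew in RPMI1640 and CHLA-20 in IMEM with insulin, transferrin and selenite, each with fetal bovine serum and streptomycin, so that line and medium cannot be told apart. RNA came from live cells and was enriched for mRNA. Each group is 1 established line, and the labels do not say whether its libraries came from separate cultures, so p-values measure the spread between these libraries, which may be technical.

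Each library held 33188542 to 34914902 counts in genes, of which 19.0% to 21.4% fell on the mitochondrial genome. PRMT5 itself was at 59.0 and 60.5 normalised counts (CPM, counts scaled to a common library size) in NGP JSK591, against 61.9 and 62.5 CPM in NGP DMSO, and at 48.0 and 48.4 CPM in CHLA-20 JSK591, against 45.6 and 45.8 CPM in CHLA-20 DMSO. Neither difference passed the test, and an inhibitor of the enzyme need not change its RNA. Of 8 neuroblastoma markers, PHOX2A, HAND2 and GATA3 were at 346 to 838 CPM over all libraries. TH was at most 0.839 CPM and DBH at most 0.353 CPM in NGP, MYCN was at 2001 to 2389 CPM in NGP and at 2.02 to 3.60 CPM in CHLA-20, and CHGA was at 0 in 7 of 8 libraries. Summed over 6 blood markers the level was 0.149 to 0.390 CPM, and over 5 epithelial markers 2.08 to 5.17 CPM. Over 5 fibroblast markers it was 659 to 697 CPM in NGP JSK591, against 585 to 603.5 CPM in NGP DMSO, and 408 to 414 CPM in CHLA-20 JSK591, against 481 to 484 CPM in CHLA-20 DMSO. In NGP 1 of these 5 rose and 2 fell, where 16.8% and 19.4% of all genes tested did so. In CHLA-20 3 fell, where 22.4% of all did. The sum in NGP was mostly COL1A1, at 618.5 to 656 CPM with JSK591 and 539 to 556 CPM with DMSO, against 46.2 to 72.2 CPM in CHLA-20. COL1A1 rose in NGP and fell in CHLA-20, while LUM and PDGFRB fell in both. The part of these markers in the results was not tested.

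Mitotic genes are made in waves. Their RNA builds up through G2, peaks in mitosis and is low in G1. Many of their promoters carry a cell cycle genes homology region (CHR), often downstream of CCAAT boxes bound by NF-Y. In resting cells, or after p53 has induced CDKN1A, the DREAM complex sits on the CHR and keeps the genes low. In G2 the same MuvB core joins MYBL2 and FOXM1 and the genes are switched on. Because these are bulk libraries, fewer cells in G2 and mitosis and less of an RNA per cell cannot be told apart.

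Promoter sequence from RefSeq (GRCh38.p14) was at hand for 32 of the 38 genes. Stretches upstream of 6 genes are shown because these genes stand for the patterns described below: TOP2A and CDC20 fell in both lines, CCNA2 and KIF11 fell in NGP with a change that differed between the lines, CENPF moved in opposite directions, and ASPM rose in both. Each is read 5' to 3' on the gene's strand, starts 250 bases before the annotated start and ends before the first base of any exon of that gene in GENCODE 29. Capitals mark the CHR letters TTTGAA or TTTAAA and the CCAAT box, on either strand (TTCAAA and ATTGG are the reverse forms).
TOP2A (chr17:40417951-40418146, minus strand): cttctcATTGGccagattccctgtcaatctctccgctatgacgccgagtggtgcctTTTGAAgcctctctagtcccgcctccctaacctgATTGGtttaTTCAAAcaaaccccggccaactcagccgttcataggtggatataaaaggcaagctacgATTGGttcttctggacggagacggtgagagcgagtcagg
CDC20 (chr1:43358731-43358954, plus strand): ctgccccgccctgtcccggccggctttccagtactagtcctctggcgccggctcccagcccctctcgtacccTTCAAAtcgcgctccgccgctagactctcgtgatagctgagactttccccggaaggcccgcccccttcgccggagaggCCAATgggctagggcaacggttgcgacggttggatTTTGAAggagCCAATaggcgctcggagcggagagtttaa
CCNA2 (chr4:121823934-121824133, minus strand): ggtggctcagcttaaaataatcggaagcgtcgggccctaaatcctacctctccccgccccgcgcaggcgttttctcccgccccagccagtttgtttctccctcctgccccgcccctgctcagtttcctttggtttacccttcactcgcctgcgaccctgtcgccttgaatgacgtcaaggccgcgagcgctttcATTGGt
KIF11 (chr10:92592880-92593129, plus strand): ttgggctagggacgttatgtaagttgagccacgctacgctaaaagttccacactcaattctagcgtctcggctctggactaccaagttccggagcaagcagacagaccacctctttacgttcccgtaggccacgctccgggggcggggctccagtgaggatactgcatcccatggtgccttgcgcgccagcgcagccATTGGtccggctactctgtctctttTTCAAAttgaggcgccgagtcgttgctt
CENPF (chr1:214602945-214603194, plus strand): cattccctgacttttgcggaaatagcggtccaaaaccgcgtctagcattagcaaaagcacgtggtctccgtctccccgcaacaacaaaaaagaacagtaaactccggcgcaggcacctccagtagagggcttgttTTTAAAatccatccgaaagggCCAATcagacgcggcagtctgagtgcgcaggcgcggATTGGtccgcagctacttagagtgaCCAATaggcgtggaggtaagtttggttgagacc
ASPM (chr1:197146695-197146919, minus strand): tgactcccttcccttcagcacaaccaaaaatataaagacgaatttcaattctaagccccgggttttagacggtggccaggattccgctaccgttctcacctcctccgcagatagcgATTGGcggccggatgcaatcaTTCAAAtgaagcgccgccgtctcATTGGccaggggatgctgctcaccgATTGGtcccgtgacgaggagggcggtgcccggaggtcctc

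Within the stretches shown, TOP2A and CDC20 each held 2 copies of TTTGAA, with 3 and 2 CCAAT boxes. ASPM, which rose, held 1 copy of TTTGAA and 3 CCAAT boxes, and CENPF 1 copy of TTTAAA and 3 CCAAT boxes. ASPM and CENPF held further CHR letters outside these stretches, given below. KIF11 held 1 of each kind, TTTGAA and CCAAT. CCNA2 had neither CHR form in these letters and 1 CCAAT box.

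Over whole 300-base windows (250 before and 50 after the start), TTTGAA or TTTAAA occurred in 29 of the 32 mitosis genes, 90.6%, against 27.9% of all 27305 genes with a window. The 3 without either were AURKB, BUB1 and CCNA2. CCAAT occurred in 26 (81.2%, against 39.7% of all), and a CHR form together with CCAAT in 23 (71.9%, against 11.2%). The E2F-type letters TCCCGC were in 15 (46.9%, against 30.4%) and TGGCGC in 9 (28.1%, against 18.9%). These motifs were searched on both strands, TTTAAA reads the same on both, and a gene with several annotated starts counted once, where any of its windows held the letters. A match is a description of the letters and not a bound site. The genes were listed for their role in mitosis, by a rule that used neither their promoters nor their levels. Earlier results of these data were known when the list was chosen.

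In NGP, 22 of the 38 mitosis genes fell with JSK591 and 4 rose, against 19.4% and 16.8% of all 19395 genes tested (36.2% in either direction). The 38 held at least 90 counts in every library, while all genes tested include some with 0 counts in a library. The part of depth in this and the later comparisons of shares was not tested. The genes that fell span entry into mitosis, the spindle checkpoint, kinetochores, the spindle and anaphase, and the decreases were modest: the median log2 change of the 38 was -0.16, and that of all genes 0.00. The lowest change was that of cyclin A2 (CCNA2), by -0.42, and the highest that of the kinetochore protein NUF2, by 0.34. Summed over the 38 genes, the level was 4305 and 4338 CPM in NGP JSK591, against 4964 and 4845 CPM in NGP DMSO, a difference of -11.9%. Single genes were tested by the quasi-likelihood method of edgeR, with p-values adjusted after Benjamini and Hochberg over the 19395 genes, and a gene rose or fell where its adjusted p was under 0.05. The number that rose was less stable than the number that fell: it was 1 by DESeq2 or without NGP DMSO replicate 2, and 2 without a filter on low counts or without NGP DMSO replicate 1, NGP JSK591 replicate 1 or CHLA-20 DMSO replicate 2.

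In CHLA-20, 25 of the 38 fell and 2 rose, against 22.4% and 16.9% of all genes tested (39.4% in either direction). The median log2 change was -0.15, and that of all genes -0.02. Topoisomerase TOP2A had the lowest change, -0.54, and the checkpoint protein MAD2L1 the highest, 0.18. The summed level was 5170.0 and 5286 CPM in CHLA-20 JSK591, against 6053 and 6014 CPM in CHLA-20 DMSO, a difference of -13.4%. Without TOP2A the difference was -8.29% in CHLA-20 and -9.33% in NGP. The libraries of the JSK591 group were both below those of the DMSO group for 28 genes in NGP and 30 in CHLA-20 (32.9% and 36.0% of all genes tested), and both above for 6 and 3 (32.3% and 30.6%).

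The 19 genes that fell in both lines were CCNB2, CDK1, CDC25C, PLK1, BUB1, TTK, CENPA, NDC80, INCENP, CDCA8, AURKA, TPX2, KIF2C, NUSAP1, DLGAP5, CDC20, UBE2C, KIF20A and TOP2A. Of all genes tested, 8.98% fell in both lines. ASPM alone rose in both, as did 5.72% of all genes. In 6 genes neither line passed the test: BUB1B, BUB3, CENPE, BIRC5, PRC1 and KIF4A. The change of each gene in each line is drawn by role in the plot of log2 changes.

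**Figure D1:**
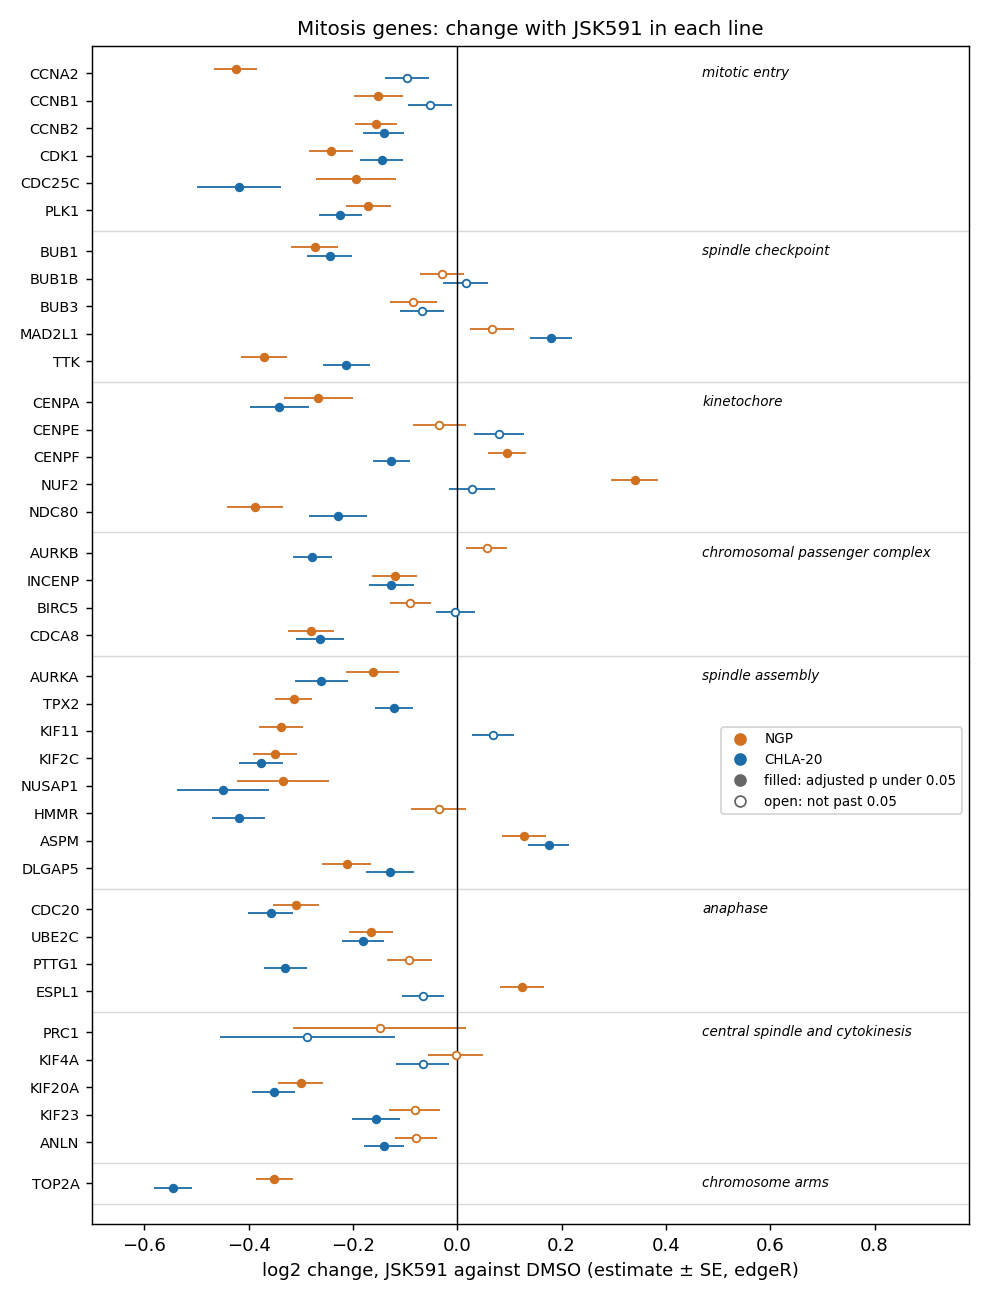
Log2 change of each of the 38 mitosis genes, JSK591 against DMSO, in NGP (orange) and CHLA-20 (blue), grouped by role; bars are the standard error of the fit, and filled points have an adjusted p under 0.05. Most points lie left of 0 in both lines, between -0.54 for TOP2A in CHLA-20 and 0.34 for NUF2 in NGP.

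Genes of entry into mitosis pointed down in both lines. The group holds the cyclins that carry cells through G2 (CCNA2, CCNB1, CCNB2), their kinase CDK1, the phosphatase CDC25C that activates CDK1, and the kinase PLK1. All 6 fell in NGP and 4 of 6 fell in CHLA-20, where 19.4% and 22.4% of all genes tested fell; CCNA2 (-0.10) and CCNB1 (-0.05) did not pass the test in CHLA-20. CCNA2 (ENSG00000145386.9, chromosome 4, 121816444 to 121823933) was at 104 and 108 CPM in NGP JSK591, against 144 and 141 CPM in NGP DMSO, a log2 change of -0.42 ± 0.04 (SE, edgeR adjusted p = 3.1e-13). It was at 92.6 and 92.2 CPM in CHLA-20 JSK591, against 98.8 and 98.8 CPM in CHLA-20 DMSO (adjusted p = 0.0599). The groups did not overlap in either line, and mean levels with JSK591 differed by -25.5% in NGP and by -6.52% in CHLA-20. CDC25C (ENSG00000158402.19, chromosome 5, 138285265 to 138338355) showed the other order. It was at 12.03 and 12.7 CPM in CHLA-20 JSK591, against 17.2 and 15.8 CPM in CHLA-20 DMSO, a log2 change of -0.42 ± 0.08 (edgeR adjusted p = 1.98e-05). In NGP it was at 16.02 and 15.2 CPM with JSK591, against 17.3 and 18.4 CPM with DMSO (-0.19 ± 0.08, adjusted p = 0.0413). That smaller decrease did not pass the test under 6 of 17 alternative settings, among them DESeq2, no filter on low counts and leaving out NGP DMSO replicate 2 (-0.16) or NGP JSK591 replicate 2 (-0.15). CCNB1 was at 53.6 and 56.5 CPM in NGP JSK591, against 62.1 and 60.1 CPM in NGP DMSO (-0.15 ± 0.05, edgeR adjusted p = 0.00861), and this call was lost without NGP JSK591 replicate 1 (-0.14). PLK1 fell by 0.17 in NGP and by 0.22 in CHLA-20; in CHLA-20 the decrease was smaller with the GC trend removed (-0.145), and in NGP the value was -0.27 without NGP DMSO replicate 1 and -0.11, past no threshold, without NGP DMSO replicate 2. CDK1 fell by 0.24 in NGP and by 0.15 in CHLA-20; the CHLA-20 call was lost without CHLA-20 DMSO replicate 2 (-0.10) and without CHLA-20 JSK591 replicate 1 (-0.10). CCNB2 fell by 0.16 and 0.14 in NGP and CHLA-20, in CHLA-20 not without CHLA-20 DMSO replicate 1 (-0.12).

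The spindle checkpoint, which holds back anaphase until every chromosome is attached, split. Its kinases BUB1 and TTK (also called MPS1) fell in both lines. BUB1B and BUB3 did not pass the test in either, and MAD2L1, the protein that binds and blocks CDC20, rose in CHLA-20. Of these 5 genes 40.0% thus fell in each line, against 19.4% of all genes tested in NGP and 22.4% in CHLA-20. TTK (ENSG00000112742.9, chromosome 6, 80003887 to 80042527) was at 76.4 and 78.7 CPM in NGP JSK591, against 104 and 96.7 CPM in NGP DMSO, a log2 change of -0.37 ± 0.04 (edgeR adjusted p = 4.15e-10). It was at 70.2 and 71.1 CPM in CHLA-20 JSK591, against 80.9 and 82.9 CPM in CHLA-20 DMSO (-0.21 ± 0.05, adjusted p = 9.73e-05). Both JSK591 libraries lay below both DMSO libraries in each line. MAD2L1 (ENSG00000164109.13, chromosome 4, 120055608 to 120067074) was at 144 and 149.8 CPM in CHLA-20 JSK591, against 132 and 128 CPM in CHLA-20 DMSO, a log2 change of 0.18 ± 0.04 (edgeR adjusted p = 2.18e-04). In NGP it was at 101 and 96.4 CPM with JSK591, against 95.6 and 93.2 CPM with DMSO, with no overlap but no call (0.07 ± 0.04, adjusted p = 0.233). BUB1 fell by 0.27 in NGP and by 0.24 in CHLA-20.

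Of 5 kinetochore genes, 2 fell and 2 rose in NGP (of all genes tested, 19.4% and 16.8%), and 3 fell in CHLA-20 (22.4% of all). CENPA, the histone variant that marks the centromere, fell by 0.27 in NGP and by 0.34 in CHLA-20. NDC80 and NUF2, whose proteins pair within the microtubule-binding NDC80 complex, moved apart in NGP. NDC80 (ENSG00000080986.12, chromosome 18, 2571511 to 2616635) was at 34.8 and 35.5 CPM in NGP JSK591, against 46.4 and 45.5 CPM in NGP DMSO, a log2 change of -0.39 ± 0.05 (edgeR adjusted p = 2.36e-08). NUF2 (ENSG00000143228.12, chromosome 1, 163266576 to 163355764) was at 83.7 and 86.1 CPM in NGP JSK591, against 68.9 and 65.3 CPM in NGP DMSO, a log2 change of 0.34 ± 0.05 (edgeR adjusted p = 8.72e-09). Mean levels differed by -23.6% for NDC80 and by 26.6% for NUF2, with no overlap between groups in either gene. In CHLA-20, NDC80 was at 32.8 and 33.6 CPM with JSK591, against 39.1 and 38.7 CPM with DMSO, and fell by 0.23. NUF2 there was at 98.4 and 102 CPM with JSK591, against 95.6 and 100.5 CPM with DMSO, and the groups overlapped (0.03, adjusted p = 0.653). CENPF, a large kinetochore and nuclear matrix protein (ENSG00000117724.12, chromosome 1, 214603195 to 214664588), was the only one of the 38 past the threshold in opposite directions. It was at 324 and 318 CPM in NGP JSK591, against 309 and 292 CPM in NGP DMSO (0.10 ± 0.04, edgeR adjusted p = 0.0352). It was at 508 and 510.5 CPM in CHLA-20 JSK591, against 552 and 560.1 CPM in CHLA-20 DMSO (-0.13 ± 0.04, adjusted p = 0.00319). The increase in NGP was lost under 9 of 17 alternative settings, among them DESeq2 and leaving out any of 6 libraries, with the value lowest without NGP DMSO replicate 2 (0.04) and NGP JSK591 replicate 1 (0.06). The others were NGP DMSO replicate 1 (0.11), CHLA-20 DMSO replicate 2 (0.07) and CHLA-20 JSK591 replicates 1 and 2 (0.09 each). The decrease in CHLA-20 was lost without CHLA-20 DMSO replicate 2 (-0.09). How many of all genes tested passed in opposite directions was not counted. CENPE, the kinesin that carries chromosomes to the equator, was at -0.03 in NGP and 0.08 in CHLA-20 and passed in neither.

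The chromosomal passenger complex corrects faulty attachments and later guides cytokinesis. Its 4 members were AURKB, the kinase, and its partners INCENP, BIRC5 (survivin) and CDCA8 (borealin). CDCA8 fell by 0.28 in NGP and by 0.26 in CHLA-20, INCENP by 0.12 and 0.13, and BIRC5 passed in neither line (-0.09 and -0.00). With AURKB, 2 of the 4 fell in NGP and 3 in CHLA-20, against 19.4% and 22.4% of all genes tested. AURKB (ENSG00000178999.12, chromosome 17, 8204733 to 8210600) was at 146 and 147 CPM in NGP JSK591, against 137 and 144 CPM in NGP DMSO, a log2 change of 0.06 ± 0.04 (edgeR adjusted p = 0.281). It was at 198 and 205 CPM in CHLA-20 JSK591, against 246 and 242 CPM in CHLA-20 DMSO, a log2 change of -0.28 ± 0.04 (edgeR adjusted p = 1.08e-08). The INCENP call was lost under 3 of 17 settings in NGP, one of them without NGP JSK591 replicate 2 (-0.10). In CHLA-20 it was lost under 8 of 17, with -0.05 without CHLA-20 DMSO replicate 2, -0.09 without CHLA-20 JSK591 replicate 2, -0.10 without NGP DMSO replicate 1, NGP DMSO replicate 2 or NGP JSK591 replicate 1, and -0.02 with a trend in GC content removed.

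Of the 8 spindle genes, 6 fell and 1 rose in each line, that is 75.0% and 12.5%, against 19.4% and 16.8% of all genes tested in NGP and 22.4% and 16.9% in CHLA-20. AURKA and its activator TPX2, which build the bipolar spindle, both fell in both lines, AURKA by 0.16 in NGP and by 0.26 in CHLA-20. TPX2 (ENSG00000088325.15, chromosome 20, 31739271 to 31801805) was at 421 and 427 CPM in NGP JSK591, against 528 and 526 CPM in NGP DMSO, a log2 change of -0.31 ± 0.04 (edgeR adjusted p = 7.66e-11). It was at 252 and 254 CPM in CHLA-20 JSK591, against 279 and 271 CPM in CHLA-20 DMSO (-0.12 ± 0.04, adjusted p = 0.00589); this call was lost without CHLA-20 DMSO replicate 1 (-0.10) and without CHLA-20 JSK591 replicate 1 (-0.11). KIF2C (MCAK), a kinesin that takes microtubules apart (ENSG00000142945.12, chromosome 1, 44739818 to 44767767), fell in both lines, and the changes differed by 0.03 ± 0.06 (not past the threshold). It was at 87.1 and 90.7 CPM in NGP JSK591, against 114 and 112 CPM in NGP DMSO, a log2 change of -0.35 ± 0.04 (edgeR adjusted p = 7.6e-10). It was at 90.1 and 94.4 CPM in CHLA-20 JSK591, against 122 and 118 CPM in CHLA-20 DMSO, a log2 change of -0.38 ± 0.04 (edgeR adjusted p = 4.33e-11).

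KIF11 (Eg5), the motor that pushes spindle poles apart (ENSG00000138160.5, chromosome 10, 92593286 to 92655395), fell in NGP. It was at 108 and 109.7 CPM in NGP JSK591, against 143 and 132 CPM in NGP DMSO, a log2 change of -0.34 ± 0.04 (edgeR adjusted p = 9.39e-10). In CHLA-20 it was at 147 and 152 CPM with JSK591, against 143 and 141 CPM with DMSO (0.07 ± 0.04, adjusted p = 0.188), so that both JSK591 libraries lay above both DMSO libraries there and below them in NGP. HMMR, a spindle and hyaluronan-binding protein (ENSG00000072571.19, chromosome 5, 163460203 to 163491945), fell in CHLA-20. It was at 44.1 and 45.7 CPM in CHLA-20 JSK591, against 59.8 and 60.3 CPM in CHLA-20 DMSO, a log2 change of -0.42 ± 0.05 (edgeR adjusted p = 5.26e-10). In NGP it was at 46.9 and 48.1 CPM with JSK591, against 51.0 and 46.4 CPM with DMSO, and the groups overlapped (-0.04 ± 0.05, adjusted p = 0.639). NUSAP1, a microtubule-bundling protein (ENSG00000137804.12, chromosome 15, 41332694 to 41381050), was at 13.2 and 11.1 CPM in NGP JSK591, against 15.5 and 15.2 CPM in NGP DMSO (-0.33 ± 0.09, edgeR adjusted p = 0.00171). It was at 10.4 and 12.5 CPM in CHLA-20 JSK591, against 16.1 and 15.1 CPM in CHLA-20 DMSO (-0.45 ± 0.09, adjusted p = 2.81e-05). Its libraries do not overlap between groups, but 62.2% of its exonic bases overlap another gene in GENCODE 29, so its counts are uncertain, and the NGP call was lost without NGP JSK591 replicate 2 (-0.21).

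ASPM, the spindle-pole protein whose loss causes microcephaly (ENSG00000066279.17, chromosome 1, 197084128 to 197146694), was the spindle gene that rose. It was at 101 and 106 CPM in NGP JSK591, against 98.3 and 90.7 CPM in NGP DMSO, a log2 change of 0.13 ± 0.04 (edgeR adjusted p = 0.0143). It was at 236 and 239.7 CPM in CHLA-20 JSK591, against 213 and 208 CPM in CHLA-20 DMSO, a log2 change of 0.18 ± 0.04 (edgeR adjusted p = 1.7e-04). Groups did not overlap in either line. The NGP call was lost under 4 of 17 settings, among them DESeq2 and leaving out NGP DMSO replicate 2 (0.06) or NGP JSK591 replicate 2 (0.10), and the CHLA-20 value was 0.10 with the GC trend removed. DLGAP5, a spindle assembly factor also called HURP, fell by 0.21 in NGP and by 0.13 in CHLA-20, where 8 of 17 settings lost the call, 5 of them by leaving out CHLA-20 DMSO replicate 2 (-0.08) or CHLA-20 JSK591 replicate 1, NGP DMSO replicate 1, NGP DMSO replicate 2 or NGP JSK591 replicate 1 (-0.10 each).

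**Figure D2:**
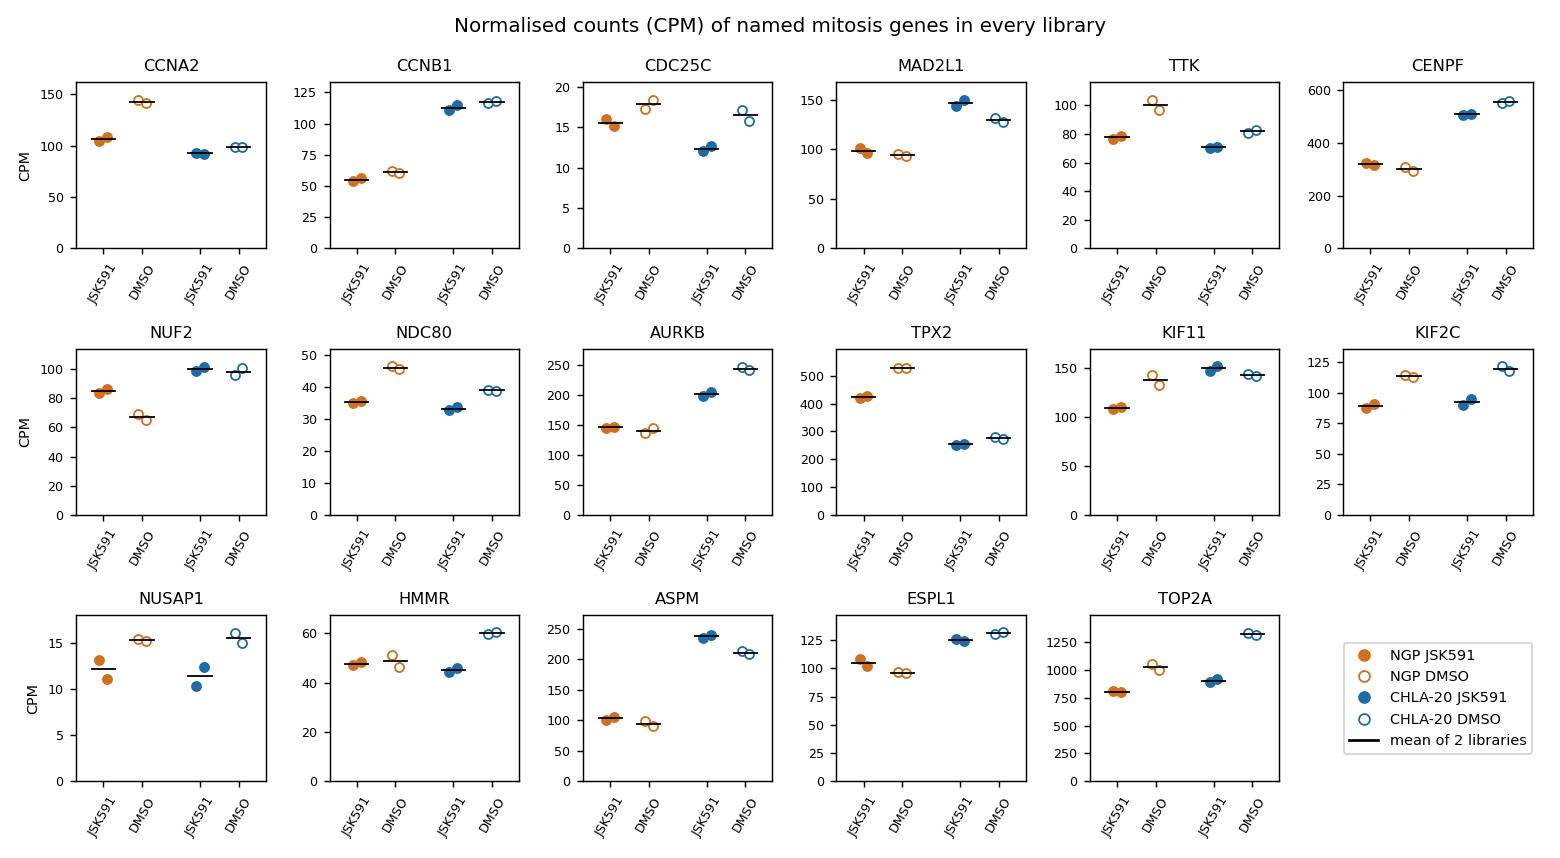
Normalised counts (CPM, axis from 0) of 17 mitosis genes in each library, with JSK591 left of DMSO in NGP (orange) and CHLA-20 (blue); black lines are the means of 2 libraries. TOP2A is lower with JSK591 in both lines, KIF11 in NGP and HMMR in CHLA-20, and ASPM is higher in both.

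Genes of anaphase are those that start the destruction of securin and cyclin B and those that cut cohesin. Of these 4, 2 fell and 1 rose in NGP, and 3 fell in CHLA-20, where 19.4%, 16.8% and 22.4% of all genes tested did so. CDC20, which activates the anaphase-promoting complex, fell by 0.31 ± 0.04 in NGP and by 0.36 ± 0.04 in CHLA-20. UBE2C, the ubiquitin-conjugating enzyme of that complex, fell by 0.17 and 0.18. PTTG1, securin, the inhibitor of separase, was at 97.8 and 101 CPM in NGP JSK591, against 107 and 104 CPM in NGP DMSO, and did not pass there (-0.09). It fell by 0.33 in CHLA-20. ESPL1, separase itself (ENSG00000135476.11, chromosome 12, 53268299 to 53293643), was at 108 and 102 CPM in NGP JSK591, against 96.4 and 95.8 CPM in NGP DMSO, and rose by 0.12 ± 0.04 (edgeR adjusted p = 0.0153). In CHLA-20 it was at 126 and 124 CPM with JSK591, against 131 and 132 CPM with DMSO (-0.07 ± 0.04, adjusted p = 0.205). The NGP increase was lost under 6 of 17 settings, among them DESeq2, removal of the GC trend (0.07) and leaving out NGP JSK591 replicate 1 (0.06), NGP DMSO replicate 1 (0.10), NGP DMSO replicate 2 (0.11) or CHLA-20 DMSO replicate 2 (0.10).

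Of 5 central spindle and cytokinesis genes, 1 fell in NGP, a share near the 19.4% of all genes tested, and 3 in CHLA-20, where 22.4% of all fell. KIF20A (MKLP2), which moves the passenger complex to the midzone, fell by 0.30 ± 0.04 in NGP and by 0.35 ± 0.04 in CHLA-20. KIF23 (MKLP1) and the contractile ring scaffold ANLN were at -0.08 and -0.08 in NGP and fell by 0.155 and 0.14 in CHLA-20; the KIF23 call was lost without CHLA-20 DMSO replicate 1 (-0.10) and without CHLA-20 JSK591 replicate 1 (-0.14), and the ANLN call without CHLA-20 JSK591 replicate 1 (-0.12). KIF4A passed in neither line. PRC1, the midzone bundler, was listed at 2.68 to 4.14 CPM over the 8 libraries, and 58.4% of its exonic bases overlap another gene, so that its level is uncertain.

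TOP2A, which untangles sister chromatids, is a role of its own in the list (ENSG00000131747.14, chromosome 17, 40388516 to 40417950). It was at 806 and 799 CPM in NGP JSK591, against 1050.0 and 996 CPM in NGP DMSO, a log2 change of -0.35 ± 0.04 (edgeR adjusted p = 3.17e-12). It was at 889 and 919 CPM in CHLA-20 JSK591, against 1327 and 1311 CPM in CHLA-20 DMSO, a log2 change of -0.54 ± 0.04 (edgeR adjusted p = 6.82e-20). Means differed by -21.6% in NGP and by -31.5% in CHLA-20, and no library of one group reached the other.

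The change with JSK591 differed between the lines for 10 of the 38 genes, 7 with a higher and 3 with a lower log2 change in NGP than in CHLA-20, against 15.2% and 12.5% of all genes tested (27.7% in either direction). With the trend in GC content removed the split was 7 and 5, and over all genes tested it was 2347 higher and 2978 lower, where the trend kept gave 2950 and 2418. Leaving out NGP DMSO replicate 2 left 4 higher and 5 lower, and leaving out NGP JSK591 replicate 1 or CHLA-20 DMSO replicate 2 left 6 and 5. For AURKB the change was 0.06 in NGP and -0.28 in CHLA-20, a difference of 0.33 ± 0.05 (edgeR adjusted p = 2.05e-06; 0.21 with the GC trend removed). For HMMR the difference was 0.38 ± 0.07 (edgeR adjusted p = 3.29e-05), and for NUF2 it was 0.31 ± 0.06 (adjusted p = 7.88e-05). In the other direction, KIF11 differed by -0.41 ± 0.06 (edgeR adjusted p = 1e-07) and CCNA2 by -0.33 ± 0.06 (adjusted p = 1.02e-05). These 5 had the largest differences, and they come from 4 roles. PTTG1 (0.24), CENPF (0.22), TOP2A (0.19), ESPL1 (0.19) and TPX2 (-0.19) completed the 10. TOP2A and CENPF were not past the threshold without NGP DMSO replicate 2 (0.11 and 0.14), and ESPL1 was lost under 6 of 16 settings, with 0.10 without NGP JSK591 replicate 1, 0.14 without NGP DMSO replicate 1, NGP DMSO replicate 2 or CHLA-20 DMSO replicate 2, 0.18 without CHLA-20 JSK591 replicate 2 and 0.06 with the GC trend removed. The median difference of the 38 was 0.02, and that of all genes 0.03.

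**Figure D3:**
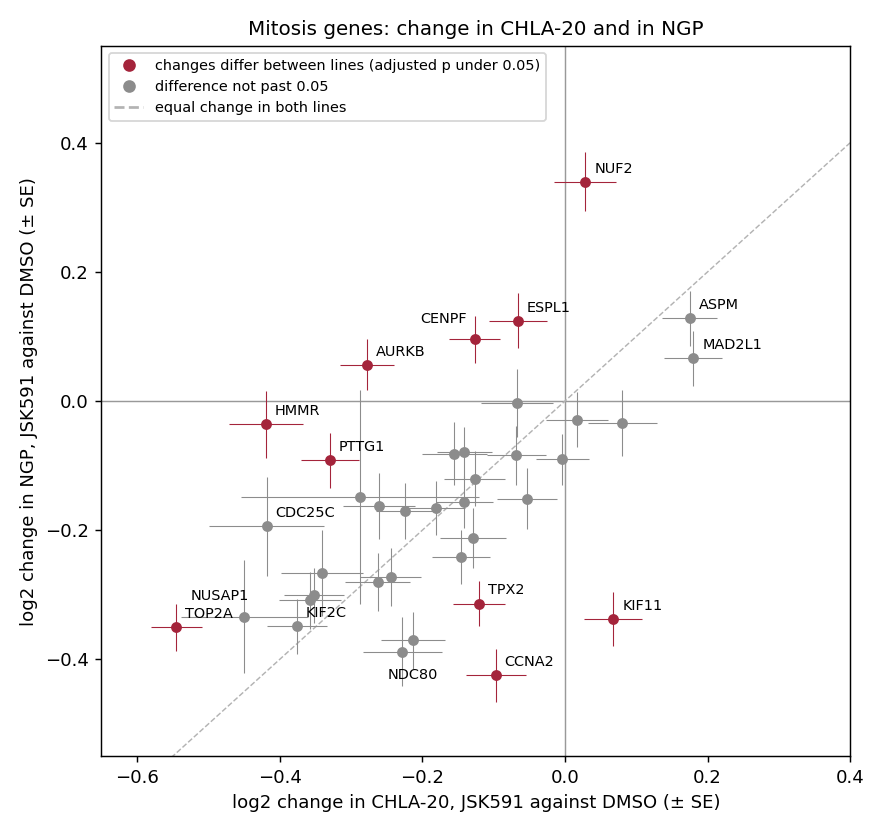
Log2 change in NGP (vertical axis) against log2 change in CHLA-20 (horizontal axis) for the 38 mitosis genes, with standard errors; the 10 genes in red differ between the lines with an adjusted p under 0.05. KIF11 and CCNA2 lie below the dashed line of equal change, and HMMR, AURKB and NUF2 above it.

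Across the 38 genes the changes in the 2 lines had a Pearson r of 0.51 and a Spearman rho of 0.50, against 0.13 and 0.23 over all 19395 genes. The 2 sets differ in depth. The 38 held at least 90 counts in every library, while all genes tested include some with 0 counts in a library. The part of depth in this gap was not tested. Genes are not independent replicates, and each line has its own DMSO libraries. Log2 change and the log of exon length had an r of 0.36 in NGP and 0.40 in CHLA-20, against -0.08 and -0.05 over all genes. ASPM and CENPF, with 10887 and 11690 exonic bases, are the longest of the 38. With GC content the mitosis genes had an r of -0.04 in NGP and -0.27 in CHLA-20 (all genes 0.06 and -0.15). These are descriptions over genes that share libraries.

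Levels between genes were compared per kilobase of merged exons (RPKM). TOP2A was the highest of the 38 in every group, with a mean of 125 RPKM in NGP JSK591, against 159 RPKM in NGP DMSO, and 140.4 RPKM in CHLA-20 JSK591, against 205 RPKM in CHLA-20 DMSO. PRC1 was the lowest, at 0.524 to 0.640 RPKM. The median of the 38 was 21.9 RPKM in NGP JSK591 and 23.0 RPKM in NGP DMSO, and 25.4 RPKM in CHLA-20 JSK591 and 26.7 RPKM in CHLA-20 DMSO.

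With DMSO alone, most of the 38 mitosis genes were lower in NGP than in CHLA-20. Of the 38, 25 were lower and 6 higher in NGP, against 38.9% and 36.6% of all genes tested (75.5% in either direction), and libraries did not overlap for 26 lower and 7 higher genes (44.1% and 42.5% of all). The median log2 difference, NGP DMSO over CHLA-20 DMSO, was -0.32, and that of all genes -0.02. The summed level of the 38 was 4964 and 4845 CPM in NGP DMSO, against 6053 and 6014 CPM in CHLA-20 DMSO, a difference of -18.7%. Lower in NGP were all 4 anaphase genes, 4 of 5 kinetochore genes, 4 of 5 central spindle genes, 4 of 6 entry genes, 3 of 5 checkpoint genes, 2 of 4 passenger complex genes and 3 of 8 spindle genes, the last (37.5%) near the 38.9% of all genes. Of the checkpoint genes 2 were higher, and of the entry, kinetochore, passenger complex and spindle genes 1 each.

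ASPM had the largest difference between the lines. It was at 98.3 and 90.7 CPM in NGP DMSO, against 213 and 208 CPM in CHLA-20 DMSO, a log2 difference of -1.15 ± 0.04 (edgeR adjusted p = 1.44e-34). CCNB1 was at 62.1 and 60.1 CPM in NGP DMSO, against 116 and 118 CPM in CHLA-20 DMSO (-0.94 ± 0.04, adjusted p = 2.84e-28). CENPF was at 309 and 292 CPM in NGP DMSO, against 552 and 560.1 CPM in CHLA-20 DMSO (-0.89 ± 0.04, adjusted p = 2.4e-31). These 3 and AURKB (-0.80 ± 0.04), at 137 and 144 CPM in NGP DMSO against 246 and 242 CPM in CHLA-20 DMSO, were lower in NGP with no overlap. TPX2 went the other way, at 528 and 526 CPM in NGP DMSO, against 279 and 271 CPM in CHLA-20 DMSO, a log2 difference of 0.94 ± 0.04 (edgeR adjusted p = 6.87e-33). The other genes higher in NGP were CCNA2 (0.53), TTK (0.29), NDC80 (0.24), BUB1B (0.19) and CDCA8 (0.13). The CDCA8 call was lost without CHLA-20 DMSO replicate 1 (0.12), and TTK and NDC80 were at 0.15 and 0.13 with the GC trend removed. Among the genes lower in NGP, CDC20 (-0.25) was at -0.05, past no threshold, with the GC trend removed and at -0.155 without NGP DMSO replicate 1. HMMR (-0.30) was at -0.20 without NGP DMSO replicate 2. AURKA (-0.11) was lost under 9 of 16 settings, 5 of them by leaving out CHLA-20 DMSO replicate 1 (-0.06), NGP DMSO replicate 1 (-0.06), NGP DMSO replicate 2 (-0.08), NGP JSK591 replicate 1 (-0.07) or NGP JSK591 replicate 2 (-0.09). The comparison of the lines is also one of their media.

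**Figure D4:**
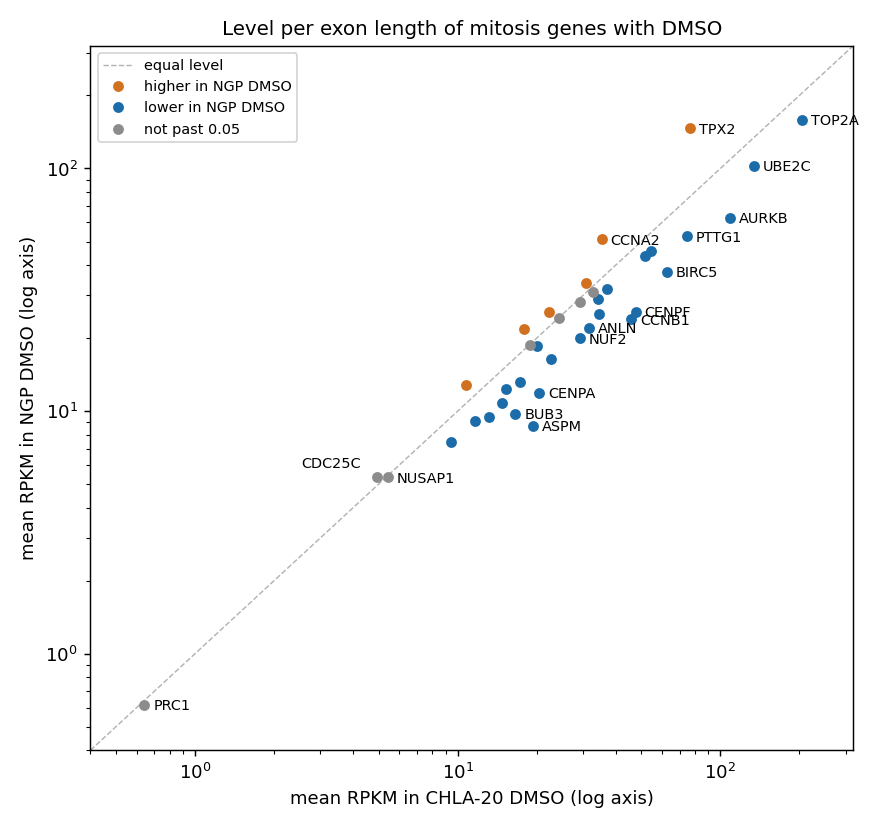
Mean level per exon length (RPKM, log axes) of the 38 mitosis genes in NGP DMSO (vertical axis) against CHLA-20 DMSO (horizontal axis); the dashed line marks equal levels. Blue points are the 25 genes lower in NGP and orange points the 6 higher, of which TPX2 lies farthest above the line.

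Beyond the 38, 149 other mitotic genes were followed in 6 lists, of which 145 passed the filter on low counts. SPC25, SKA1, KIFC1 and SFN, at 0 to 0.207 CPM in every library, did not. Ambiguous reads and reads with several alignments were not assigned to genes, and whether that lowered these counts was not tested. In NGP 52 of the 145 fell and 15 rose (median -0.07), that is 35.9% and 10.3%, against 19.4% and 16.8% of all genes tested. In CHLA-20 45 fell and 34 rose (median -0.02), that is 31.0% and 23.4%, against 22.4% and 16.9% of all. Leaving out CHLA-20 DMSO replicate 2 lowered the 45 to 29, and leaving out NGP JSK591 replicate 1 lowered the 15 to 9. For JSK591 against DMSO, the shares of each list below are set against these shares of all genes. With DMSO alone, 71 of the 145 were lower in NGP than in CHLA-20 and 48 higher (median log2 difference -0.11). These are 49.0% and 33.1%, against 38.9% and 36.6% of all genes tested. The lists differed: 64.5% of the spindle and centrosome genes were lower and 19.4% higher. Of the genes of the anaphase-promoting complex and mitotic exit, 33.3% were lower and 54.2% higher.

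Of the spindle and centrosome genes, 15 of 31 fell in NGP (48.4%), and 17 fell (54.8%) and 3 rose (9.68%) in CHLA-20. NEK2, a kinase of centrosome separation, fell by 0.60 ± 0.06 in NGP and by 0.51 ± 0.05 in CHLA-20. KIF18A, a kinesin that shortens kinetochore fibres, fell by 0.48 in NGP and by 0.19 in CHLA-20, a CHLA-20 call lost under 4 of 17 settings: DESeq2, no filter on low counts, and without CHLA-20 DMSO replicate 2 (-0.15) or CHLA-20 JSK591 replicate 1. TROAP, a protein of spindle assembly, fell by 0.15 in NGP and by 0.47 in CHLA-20; in NGP the value was -0.23 without NGP DMSO replicate 1, and -0.11, past no threshold, without NGP DMSO replicate 2. In the list of other kinetochore and centromere genes, 9 of 32 fell (28.1%) and 4 rose (12.5%, below the share of all genes) in NGP. In CHLA-20 6 fell (18.8%, below the share of all genes) and 10 rose (31.2%); the 6 were 3 without CHLA-20 DMSO replicate 2. The cohesin guard SGO1 fell by 0.45 in NGP and by 0.27 in CHLA-20, CENPH fell by 0.24 in NGP and by 0.55 in CHLA-20, and MIS12 was at -0.00 in NGP and rose by 0.45 in CHLA-20. HJURP, the chaperone that deposits CENPA, fell by 0.33 in NGP and by 0.34 in CHLA-20. Of 24 genes of the anaphase-promoting complex and mitotic exit, 7 fell (29.2%) and 3 rose (12.5%) in NGP, and 4 fell (16.7%) and 8 rose (33.3%) in CHLA-20; the 12.5% and the 16.7% lie below the shares of all genes. ANAPC1, its largest subunit, rose by 0.20 in NGP and by 0.30 in CHLA-20, and the phosphatase subunit PPP2R2A fell by 0.57 in NGP and was at -0.06 in CHLA-20. MAD1L1, the checkpoint protein that recruits MAD2, fell by 0.33 in NGP and by 0.31 in CHLA-20, where the call was lost without CHLA-20 DMSO replicate 2 (-0.15) and with the GC trend removed (-0.16). FBXO5, an inhibitor of the complex, was at -0.09 in NGP and rose by 0.13 in CHLA-20, a call lost with the GC trend removed (0.06) and without CHLA-20 DMSO replicate 1 (0.14), CHLA-20 JSK591 replicate 1 (0.14) or CHLA-20 JSK591 replicate 2 (0.13). Of 19 genes of condensin, cohesin and the chromosome surface, 9 fell in NGP (47.4%), and 6 fell (31.6%) and 4 rose (21.1%) in CHLA-20. The cohesin subunit RAD21 fell by 0.30 in NGP and by 0.14 in CHLA-20, though in CHLA-20 not without CHLA-20 DMSO replicate 2 (-0.10). The cohesin subunit STAG2 fell by 0.28 in NGP and was at -0.03 in CHLA-20, the condensin II subunit NCAPG2 fell by 0.17 in NGP and by 0.33 in CHLA-20, and the cohesin acetyltransferase ESCO2 was at -0.07 in NGP and rose by 0.45 in CHLA-20. MKI67, the proliferation marker that coats mitotic chromosomes, fell by 0.19 in NGP and by 0.14 in CHLA-20, though in CHLA-20 not without CHLA-20 DMSO replicate 2 (-0.10). It was at 171 and 164 CPM in NGP DMSO, against 606 and 614 CPM in CHLA-20 DMSO, a log2 difference of -1.87.

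Of 17 other kinases, cyclins and brakes of G2 and mitosis, 6 fell and 1 rose in NGP, and 6 fell and 2 rose in CHLA-20, so that 35.3% fell in each line, against 19.4% of all genes in NGP and 22.4% in CHLA-20. WEE1, the kinase that holds CDK1 inactive, was at 68.4 and 69.7 CPM in NGP JSK591, against 55.4 and 53.6 CPM in NGP DMSO, and rose by 0.34 ± 0.05 (edgeR adjusted p = 2.45e-08). It rose by 0.17 ± 0.05 in CHLA-20 (adjusted p = 0.0023). CDC25A, a phosphatase that opposes WEE1, fell by 0.14 in NGP and rose by 0.36 in CHLA-20. The NGP decrease was lost under 5 of 17 settings, which were total count scaling (-0.11), no filter on low counts, and without NGP DMSO replicate 1, NGP JSK591 replicate 1 or NGP JSK591 replicate 2. NEK7, a mitotic kinase, fell by 0.35 ± 0.07 in NGP and by 0.57 ± 0.08 in CHLA-20.

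Among the factors that transcribe mitotic genes, FOXM1 fell in both lines. It was at 165 and 160.1 CPM in NGP JSK591, against 192 and 192 CPM in NGP DMSO, a log2 change of -0.24 ± 0.04 (edgeR adjusted p = 7.68e-07). It was at 320.1 and 329.5 CPM in CHLA-20 JSK591, against 379.9 and 366 CPM in CHLA-20 DMSO, a log2 change of -0.20 ± 0.04 (edgeR adjusted p = 7.53e-06). MYBL2 was at -0.09 and -0.02 and the MuvB subunit LIN9 at -0.12 and -0.10 in NGP and CHLA-20, neither past the threshold; LIN54, the MuvB subunit that reads the CHR, was at -0.14 in NGP and rose by 0.20 in CHLA-20, and E2F1 was at 0.02 in NGP and rose by 0.20 in CHLA-20. The LIN54 call was lost without CHLA-20 DMSO replicate 1 (0.18) and without CHLA-20 JSK591 replicate 2 (0.16). E2F7, a repressor of the E2F family, rose by 0.53 in NGP and by 0.24 in CHLA-20, the CHLA-20 call lost without CHLA-20 JSK591 replicate 1 (0.20). E2F5, another E2F repressor, was at -0.07 in NGP and fell by 0.49 in CHLA-20. MYBL1 (A-MYB) rose by 0.41 in NGP and by 0.31 in CHLA-20, but 4 of 17 settings lost the NGP call and 3 of 17 the CHLA-20 call, DESeq2 in each line; the others were no filter, NGP DMSO replicate 1 or NGP JSK591 replicate 2 left out in NGP (0.34 for each library), and CHLA-20 DMSO replicate 1 (0.23) or CHLA-20 JSK591 replicate 2 left out in CHLA-20. The MuvB subunit LIN37 was low, at 1.21 and 0.823 CPM in NGP JSK591, against 1.73 and 1.56 CPM in NGP DMSO, and fell by 0.69 ± 0.26 (edgeR adjusted p = 0.0332). That call was lost under 5 of 17 settings: DESeq2, no filter, and without NGP DMSO replicate 1, NGP DMSO replicate 2 or NGP JSK591 replicate 2 (-0.43). In CHLA-20 LIN37 was at 0.75 and 0.624 CPM with JSK591, against 0.888 and 0.919 CPM with DMSO, and did not pass the test (-0.39). Over the 22 genes of this list, 6 fell and 7 rose in each line, that is 27.3% and 31.8%, against 19.4% and 16.8% of all genes tested in NGP and 22.4% and 16.9% in CHLA-20. CDKN1A, the CDK inhibitor p21, was at 336 and 342 CPM in NGP JSK591, against 207 and 216 CPM in NGP DMSO, and rose by 0.68 ± 0.04 (edgeR adjusted p = 2.39e-23). It rose by 0.67 ± 0.04 in CHLA-20 (adjusted p = 9.17e-22).

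S phase genes, which make and copy DNA, were followed as well. Of 40 S phase genes, 9 rose and 15 fell in NGP (median -0.02), that is 22.5% and 37.5%, against 16.8% and 19.4% of all genes tested. In CHLA-20 23 rose and 2 fell (median 0.16), that is 57.5% and 5.0%, against 16.9% and 22.4% of all. Their summed level was 3915 and 4012 CPM in NGP JSK591, against 4141 and 4163 CPM in NGP DMSO, a difference of -4.55%. It was 4074 and 4057 CPM in CHLA-20 JSK591, against 3626 and 3625 CPM in CHLA-20 DMSO, a difference of 12.2%. For 23 of the 40 the change was lower in NGP than in CHLA-20 and for 1 it was higher, while among the 38 mitosis genes these counts were 3 and 7. Over all genes tested the change was lower in NGP for 12.5% and higher for 15.2%; the 7.89% and 18.4% of the mitosis genes are near those shares, and 57.5% and 2.5% of the S phase genes are not. The plot of cumulative distributions sets these lists beside all genes tested.

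**Figure D5:**
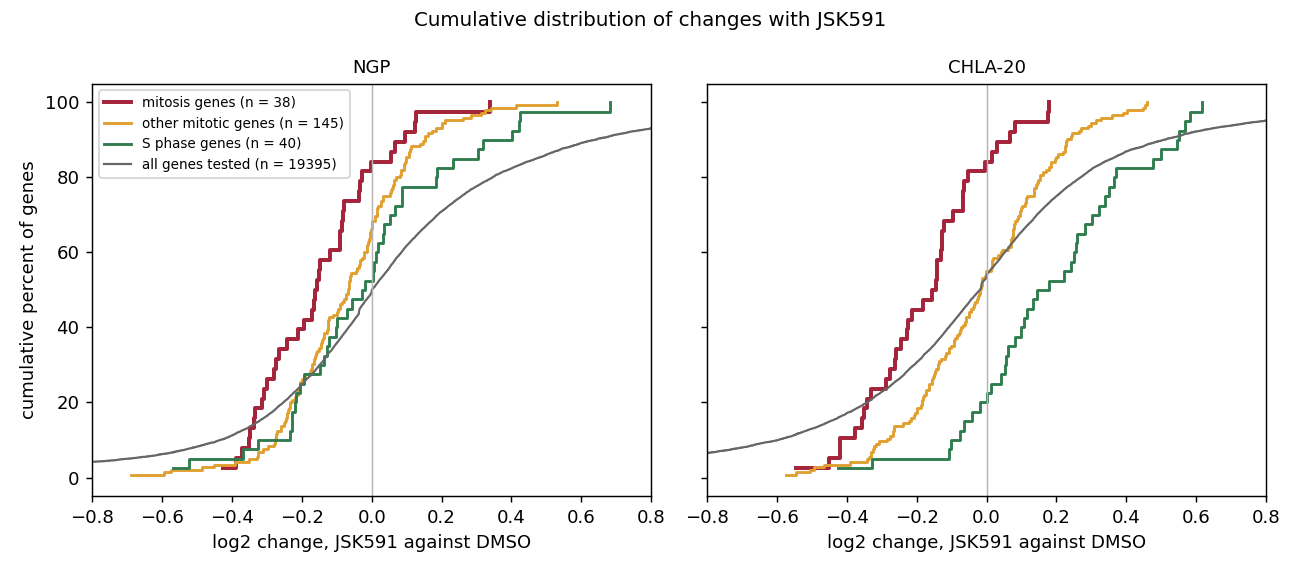
Cumulative percent of genes (vertical axis) by log2 change with JSK591 (horizontal axis, shown between -0.8 and 0.8) in NGP (left) and CHLA-20 (right), for the 38 mitosis genes, 145 other mitotic genes, 40 S phase genes and all 19395 genes tested. The median of the mitosis genes is -0.16 in NGP and -0.15 in CHLA-20, and that of the S phase genes is -0.02 in NGP and 0.16 in CHLA-20.

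Several mitotic genes have processed copies elsewhere in the genome. Named pseudogenes and copies of 9 of the 38 held at most 70 counts in a library, the number for KIF4B, which was at most 4.38% of the count of KIF4A in the same library; the copy CDC20P1 reached 42 counts and at most 1.28% of the count of CDC20. Reads with several alignments, 19.2% to 22.0% of all, were not assigned to genes.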

How the data were processed

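mRNA-enriched RNA of 8 libraries was sequenced. Reads were aligned with STAR and counted per gene with HTSeq on GRCh38/hg38, and DESeq2 is also named, all per the submitters' processing notes; versions, annotation release and strand setting are not given in the sources used here. The deposited values are whole-number counts per Ensembl gene, not normalised by the authors. Rows that name no gene were left out of library sizes: of all counts in a table, they held 5.15% to 6.86% without a feature, 6.77% to 7.18% ambiguous and 19.2% to 22.0% with several alignments.

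Identifiers were given symbols, exon lengths and GC content from GENCODE 29. Counts were tested with edgeR 4.0.16 in R 4.3.3: TMM scaling, the edgeR filter on low counts (19395 of 58721 genes kept), 1 model with 4 group means over all 8 libraries (4 residual degrees of freedom), the quasi-likelihood test, Benjamini-Hochberg adjustment over all genes tested and a threshold of 0.05. The common dispersion gave a coefficient of variation of 2.76%. CPM are scaled by TMM library sizes. A floor of 3 counts is 0.0859 to 0.0904 CPM, which covers counting error only. Members of a group differed by more than sampling noise (chi-square per degree of freedom 2.16 to 3.36), so no library was counted as a copy of another.

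Alternatives were other scalings (size factors of DESeq2, total counts), no filter or at least 10 counts in every library, DESeq2 1.42.0, removal of a trend with GC content, a replicate block, each line alone, and each library left out. The fit was run on simulated counts as well, where the share of calls on unchanged genes lay above the threshold and the smallest changes made were larger than most reported here. The members, the lists and the tests were chosen with earlier results of these data known. Values in every library are given for the 5 mitosis genes with the largest change past the threshold in each of the 4 comparisons, for those past it in the direction that fewer took in a line, and for those past it in opposite directions; of each other list the 2 largest changes per line and 8 regulators were named. The motif search used RefSeq promoter windows (GRCh38.p14). Figures were drawn with matplotlib 3.10.9.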

Additional observations from a re-analysis of the deposited data

Results flagged for a closer look

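The change with JSK591 differed between the lines, by edgeR's test of the difference itself (NGP minus CHLA-20, log2), in 10 mitosis genes. The 7 with a higher change in NGP (18.4%) and the 3 with a lower one (7.89%) are near the 15.2% and 12.5% of all genes tested (27.7% in either direction). The difference was -0.41 for KIF11, -0.33 for CCNA2 and -0.19 for TPX2, whose change with JSK591 was lower in NGP than in CHLA-20. It was 0.38 for HMMR, 0.33 for AURKB, 0.31 for NUF2, 0.24 for PTTG1, 0.22 for CENPF, 0.19 for TOP2A and 0.19 for ESPL1, whose change was higher in NGP than in CHLA-20. Among the regulators followed, it was -0.34 for LIN54, -0.22 for FBXO5, -0.19 for E2F1 and 0.17 for WEE1. The E2F1 difference was lost under 3 of 16 settings: no filter on low counts, and without CHLA-20 DMSO replicate 1 (-0.16) or CHLA-20 JSK591 replicate 1 (-0.14). It was -0.42 with the GC trend removed. The WEE1 difference was lost under 12 of 16 settings, which include leaving out each of the 8 libraries, and was lowest without NGP DMSO replicate 2 (0.11). Groups of 2 libraries are too small to test for a library that stands apart.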

How the results depend on the processing

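Of the calls on the mitosis genes, 18 of 26 in NGP, 19 of 27 in CHLA-20, 7 of 10 for the difference between the lines and 28 of 31 between the DMSO groups held under all settings tried. The count of mitosis genes that rose in NGP was 4, and was 2 without a filter on low counts, 1 by DESeq2 and 1 to 4 with a library left out. The count with a lower change in NGP than in CHLA-20 was 3, and was 5 with the GC trend removed and 3 to 5 with a library left out; the count with a higher change was 7, and 4 to 7 with a library left out. Of the other mitotic genes, leaving out a library gave 29 to 44 that fell in CHLA-20 (45 with all), 9 to 15 that rose in NGP (15 with all) and 9 to 17 with a higher change in NGP than in CHLA-20 (18 with all). With the GC trend removed, MYBL2 was at 0.11 in CHLA-20, and at 0.16 in NGP DMSO against CHLA-20 DMSO. INCENP was then at -0.16 for the difference between the lines and at 0.27 in NGP DMSO against CHLA-20 DMSO. These 4 values were past the threshold, on the other side of 0 from the values with the trend kept (-0.02, -0.15, 0.01 and -0.01); the cause was not tested. With a replicate block, the counts higher and lower stayed at 4 and 22 in NGP, 2 and 25 in CHLA-20, 7 and 3 for the difference and 6 and 25 between the DMSO groups. Deviations of same-numbered libraries correlated at -0.027 to 0.012 over all genes tested, so no shared effect of the replicate number was seen. Genes with low counts weigh as much as others there, so this cannot tell whether same-numbered libraries were prepared together. The median of all genes moved by at most 0.058 (log2) under any setting. With 2 libraries a group and a median standard error of 0.043 in NGP and 0.042 in CHLA-20, changes near 0.1 are at the limit of what the test could call.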
